A study of Mus musculus with 32 samples.

Results

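The expression of 9 genes that encode testis or replacement histone variants was followed in mouse germ cells through the first wave of spermatogenesis. The genes were chosen by name. They are H3f3a and H3f3b, which both encode the replacement histone H3.3, H2afz and H2afv, which encode the 2 forms of H2A.Z, the linker histone genes H1f0, Hist1h1t and Hils1, and the testis core histone genes Hist1h2aa and Hist1h2ba. All 9 were found among the 85539 genes of the transcript table. Only 6 of them were among the 20368 genes of the juvenile gene table, since Hist1h1t, Hist1h2aa and Hils1 never reached 3 TPM (the length-scaled share of all transcripts) in a juvenile mouse.

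RNA sequencing was performed on male C57BL/6J mice with no engineered allele or treatment named. Germ cells were taken from the testes of 28 individual juvenile mice, 3 mice at 8 dpp (days postpartum) and 5 mice at each of 10, 12, 14, 16 and 18 dpp. At these ages the most advanced germ cells progress from spermatogonia to late meiotic prophase. The paper collected 5 mice at 8 dpp and kept 3, leaving out those that matched their age poorly in cytology and RNA sequencing. The spread between mice at 8 dpp may therefore be understated. A further 4 adult samples held pachytene and diplotene spermatocytes sedimented through an albumin gradient in a STA-PUT chamber, and each adult sample pooled 6 mice of 9 weeks. All libraries were made from poly-A RNA, so histone mRNAs without a poly-A tail are captured poorly if at all. TPM values keep no read counts and the depth of each library is unknown, so every error given here is the spread between samples. In the sample titles, every library barcode of 8, 10 and 12 dpp recurs at 14, 16 or 18 dpp. Libraries with the same barcode cannot share a sequencing pool, so the juvenile libraries were not all in one pool. The pools are not named. The part of pooling in differences between earlier and later ages, such as 8 against 18 dpp or 12 against 14 dpp, was not tested.

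Histone variants differ from the bulk histones in when they are made and where they are placed. The bulk core and linker histones are made during DNA replication from clustered genes whose mRNAs end in a stem-loop in place of a poly-A tail. Replacement variants such as H3.3 and H2A.Z are encoded by genes with introns and polyadenylated mRNAs, and chaperones deposit them at any phase of the cell cycle. In male germ cells testis variants of H1, H2A and H2B enter chromatin during meiosis, and most histones are later replaced in spermatids by transition proteins and then by protamines.

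The 2 H3.3 genes encode the same protein from different promoters, and so do, for nearly identical proteins, the 2 H2A.Z genes. The 250 bases upstream of each RefSeq start are shown for these pairs, because the balance within each pair is the main comparison below. The sequences are from RefSeq on GRCm38.p6, 5′ to 3′ on the strand of the gene, and capitals mark 3 motifs on either strand. The first is CCAAT, which reads ATTGG on the other strand. The second is the motif TATAAA, the reverse of which is TTTATA. The third is the motif GGGCGG, the reverse of which is CCGCCC.
H3f3a, chr1:180813606-180813855, minus strand: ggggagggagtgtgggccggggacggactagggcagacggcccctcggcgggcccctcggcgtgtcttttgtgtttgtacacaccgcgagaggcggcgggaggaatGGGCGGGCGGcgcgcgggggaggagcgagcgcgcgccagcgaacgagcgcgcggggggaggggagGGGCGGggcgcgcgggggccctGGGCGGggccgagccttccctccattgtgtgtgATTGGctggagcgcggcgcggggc
H3f3b, chr11:116024505-116024754, minus strand: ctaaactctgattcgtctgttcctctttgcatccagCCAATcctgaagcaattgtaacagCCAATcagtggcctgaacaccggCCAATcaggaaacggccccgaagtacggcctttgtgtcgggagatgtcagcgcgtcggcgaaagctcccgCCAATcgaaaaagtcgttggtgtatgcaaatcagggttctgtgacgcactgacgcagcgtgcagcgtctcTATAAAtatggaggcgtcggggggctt
H2afz, chr3:137864237-137864486, plus strand: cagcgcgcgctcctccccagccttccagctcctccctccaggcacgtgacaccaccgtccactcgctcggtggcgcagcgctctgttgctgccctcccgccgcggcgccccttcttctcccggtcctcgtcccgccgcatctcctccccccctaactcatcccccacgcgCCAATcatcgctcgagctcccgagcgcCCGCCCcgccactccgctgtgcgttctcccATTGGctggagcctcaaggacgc
H2afv, chr11:6444444-6444693, minus strand: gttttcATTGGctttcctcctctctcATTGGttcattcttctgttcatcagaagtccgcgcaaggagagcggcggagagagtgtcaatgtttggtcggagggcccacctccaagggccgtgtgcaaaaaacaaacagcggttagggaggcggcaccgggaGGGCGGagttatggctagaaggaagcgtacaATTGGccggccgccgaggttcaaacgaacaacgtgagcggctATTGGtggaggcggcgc
The H3f3a window was 77.2% G and C and held 4 GGGCGG and 1 CCAAT. It lies inside the annotated H3f3a gene. The H3f3a transcript ENSMUST00000162814, with 55.2% of the gene at 8 dpp, starts further upstream at 180813943. The bases before that start were not searched. The H3f3b window was 54% G and C and held 4 CCAAT and a TATAAA 27 bases before the start, with no GGGCGG. The H2afz window held 2 CCAAT and 1 GGGCGG at 71.2% G and C, and the H2afv window 4 CCAAT and 1 GGGCGG at 57.2%. Of 32851 mouse promoter windows of this length, 33.85% held the first motif, 32.74% the third and 12.37% the second, and their median G and C content was 52.4%.

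The testis genes Hist1h2ba and Hist1h2aa lie head to head on chromosome 13, and their upstream windows share 220 bases. The Hist1h2aa window is shown for that reason, with the same motifs in capitals.
Hist1h2aa, chr13:23934187-23934436, plus strand: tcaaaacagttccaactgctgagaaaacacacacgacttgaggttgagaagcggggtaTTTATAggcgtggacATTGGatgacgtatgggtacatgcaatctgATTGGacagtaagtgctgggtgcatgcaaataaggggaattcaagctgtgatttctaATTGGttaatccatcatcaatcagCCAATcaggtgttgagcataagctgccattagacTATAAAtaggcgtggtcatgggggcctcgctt
The Hist1h2aa window held 4 CCAAT and 2 TATAAA, of which one stood 32 bases before the start of Hist1h2aa. The other lay in the shared bases, and the Hist1h2ba window, chr13:23934157-23934406 on the minus strand, held it 94 bases before its own start along with 4 CCAAT. That start of Hist1h2ba is the start of its annotated coding region. The start used for Hist1h2aa lies upstream of its coding region, which begins at 23934462, so these distances are to unlike points. TGACGTCA, which reads the same on both strands and was in 1.546% of all windows, was in none of the 9 windows, and that of H1f0 held none of the other motifs either. The H1f0 window ended at 79028211, before a RefSeq start. The annotated H1f0 transcript starts at 79028450, and the bases between were not searched. The mRNA ends of the linker histone genes are shown because the libraries were selected on poly-A. Hist1h1t carries a histone stem-loop, printed with both arms of the stem in capitals, and further on a poly-A signal, in capitals among its neighbouring bases. H1f0 and Hils1 hold a poly-A signal only.
Hist1h1t stem-loop: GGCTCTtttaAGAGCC
Hist1h1t poly-A signal: cgccagAATAAAggtcac
H1f0 poly-A signal: ctttaaAATAAAactgga
Hils1 poly-A signal: agtgggAATAAAacgcaa
The stem-loop of Hist1h1t starts at base 30 of the 3′ untranslated region (UTR), and the annotated transcript runs on for 185 bases after it. The signal AATAAA starts 27 bases before the annotated end in Hist1h1t, 22 bases in H1f0 and 24 bases in Hils1. The consensus of the histone mRNA stem-loop, searched on the mRNA strand, was present in 0.185% of 44785 coding transcripts with an annotated 3′ UTR, and in 47 of the 56 such transcripts from clustered histone genes that are not among the 9. AATAAA stood in the last 40 bases of 51.3% of the coding transcripts. It was absent there from the most abundant transcripts of H3f3a, H3f3b, H2afz and H2afv, genes with far higher TPM than Hist1h1t. An annotated signal is thus no measure of how well an mRNA was captured here. Hist1h2ba and Hist1h2aa are annotated as their coding regions of 384 and 390 bases with no UTR, and any untranslated ends fall outside the annotated transcripts used here.

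The labelled cells were checked against marker lists. All 5 germ cell markers were above 0 in every mouse, and so were all 6 Sertoli, 5 Leydig, 4 peritubular, 4 macrophage and 5 red blood cell markers. The germ cell markers summed to 684.8 to 892.9 TPM at 8 dpp and 1987 to 2307 TPM at 18 dpp. The peritubular markers summed to 943.9 to 1035 TPM and 437.7 to 898.8 TPM at these ages. The summed pachytene spermatocyte markers, of which 6 of 6 rose from 8 to 18 dpp (limma, adjusted p under 0.05), ranged over 46.8 to 56.3 TPM at 8 dpp and 2547 to 4656 TPM at 18 dpp. The spermatogonium markers, of which 6 of 6 fell, ranged over 790.2 to 910.4 TPM and 368 to 542 TPM, and the Sertoli markers, of which 5 of 6 fell, over 1663 to 1840 TPM and 627 to 882 TPM. The remaining Sertoli marker, Rhox5, rose from a mean of 36.6 TPM at 8 dpp to 68.4 TPM at 18 dpp (limma, adjusted p = 0.00127). Within 18 dpp, mice 1 to 3 had pachytene sums of 4502 to 4656 TPM and mice 4 and 5 had 2673 and 2547 TPM. In these bulk samples, fewer cells of a type and less RNA per cell cannot be told apart, and the part of these cell types in the results below was not tested. The adult samples contained spermatid markers at 871.9 to 1189 TPM in sum, with Sertoli markers at 39 to 60.8 TPM and Leydig markers at 205.8 to 269.3 TPM. Same-age mice correlated at r = 0.947 to 0.984 over 53 pairs. These correlations run over genes and not over independent replicates.

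Over the 6 ages, 5 of the 6 genes tested differed (limma F-test, adjusted p under 0.05), against 77.6% of all genes. From 8 to 18 dpp, 4 fell (H1f0, H3f3b, H2afv and H3f3a) and H2afz rose. Among all genes, 36.3% fell and 31.8% rose in that comparison. Hist1h2ba was the gene of the 6 that did not pass. The log2 fold changes of all genes had a median of -0.09 and quartiles of -0.60 and 0.62, and the median of the 6 genes was -0.58. By mean TPM the order at 8 dpp was H3f3b, H3f3a, H1f0, H2afv and H2afz, of which H2afv and H2afz overlapped, and at 18 dpp it was H3f3b, H3f3a, H2afz, H2afv and H1f0, of which H3f3b and H3f3a overlapped.

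**Figure D1:**
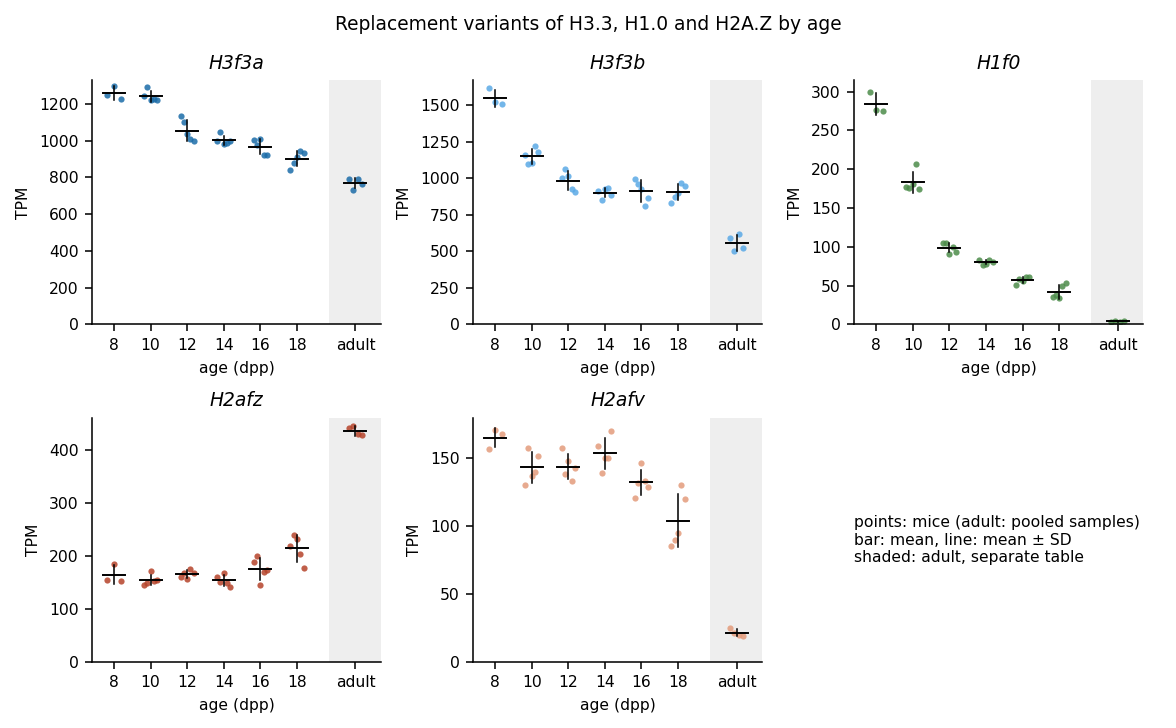
TPM (linear axes from 0) of the replacement variant genes H3f3a, H3f3b, H1f0, H2afz and H2afv by age in dpp, with the adult pachytene samples shaded. Points are single mice or pooled adult samples, the bar is the mean and the line the mean ± SD. H1f0 fell from a mean of 283.8 to 42.2 TPM between 8 and 18 dpp, and H2afz rose from 164.5 to 214.4 TPM.

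H3f3b and H3f3a were the most abundant of the 9 genes at every age. They lie at chr11:116021912-116027962 and chr1:180800832-180813943 (GRCm38, both on the minus strand). By mean TPM they ranked 55th and 74th of the 20368 genes at 8 dpp and 88th and 89th at 18 dpp. H3f3b stood at 1613, 1520 and 1504 TPM in the 3 mice at 8 dpp and at 1158, 1093, 1102, 1218 and 1177 TPM in the 5 mice at 10 dpp. Every mouse at 8 dpp was thus above every mouse at 10 dpp. H3f3b then measured 999, 1064, 1012, 928 and 905 TPM at 12 dpp, 914, 853, 925, 929 and 881 TPM at 14 dpp and 993, 958, 924, 806 and 865 TPM at 16 dpp. At 18 dpp it measured 831, 869, 899.5, 965 and 944 TPM. The 12 dpp mice lay below those of 10 dpp, and from 12 dpp onward the ages overlapped.

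H3f3b was 1.71-fold lower at 18 than at 8 dpp by the ratio of means, with a log2 fold change of -0.78 ± 0.07 (SE) on the log2(TPM + 1) scale used for all tests (limma, adjusted p = 4.49e-11). More than one part of this fall passed the test. The log2 fold change was -0.43 from 8 to 10 dpp (limma, adjusted p = 0.000543), a step at which 1.2% of all genes were called and at which H3f3b and H1f0 were the 2 of the 6 genes to be called. From 10 to 12 dpp it was -0.23 (limma, adjusted p = 0.00399), when H3f3b, H3f3a and H1f0 were called, 3 of 6 against 21.4% of all genes. Between 16 and 18 dpp the H3f3b log2 fold change was -0.01 (limma, adjusted p = 0.896). Scaling the libraries by median-of-ratios factors, which moved the median of all genes by 0.143 between 8 and 18 dpp, gave a rise of 0.16 there (limma, adjusted p = 0.0295).

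H3f3a, the other source of H3.3, also fell, with its first called step from 10 to 12 dpp. It measured 1247, 1300 and 1225 TPM at 8 dpp and 1243, 1291, 1223, 1224 and 1223 TPM at 10 dpp. At 12 dpp it measured 1133, 1099, 1036, 1008 and 998 TPM, at 14 dpp 997, 1046, 982, 985 and 999.6 TPM and at 16 dpp 1002, 978, 1009, 924 and 923 TPM. The 8 and 10 dpp mice overlapped, and every mouse from 12 dpp onward lay below them. At 18 dpp the values were 842, 879, 913, 942 and 932 TPM, lower in each mouse than in any at 8, 10, 12 or 14 dpp.

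The H3f3a level was 1.39-fold lower at 18 than at 8 dpp (log2 fold change -0.48 ± 0.05, limma, adjusted p = 2.62e-09). Its log2 fold change was -0.02 from 8 to 10 dpp (limma, adjusted p = 0.982) and -0.24 from 10 to 12 dpp (limma, adjusted p = 0.000224). The step from 16 to 18 dpp passed narrowly, at -0.10 (limma, adjusted p = 0.0488). That call was lost in 7 of 11 other settings and in 19 of 28 fits that left out 1 mouse, and its direction turned under both other scalings.

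**Figure D2:**
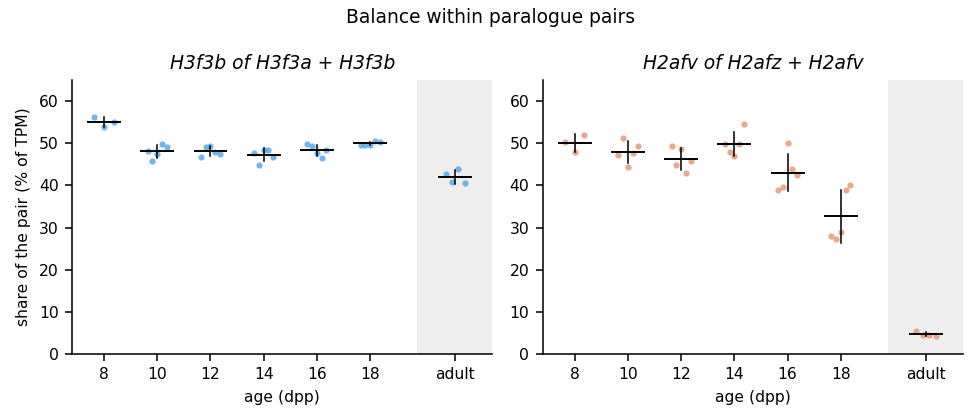
Share of H3f3b in the summed TPM of H3f3a and H3f3b (left) and of H2afv in that of H2afz and H2afv (right), in percent by age in dpp, with the adult pachytene samples shaded. Points are single mice or pooled adult samples, the bar is the mean and the line the mean ± SD. The mean H3f3b share was 55.1% at 8 dpp and 48.1% at 10 dpp, and the mean H2afv share was 32.7% at 18 dpp and 4.64% in the adult samples.

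The share of H3f3b in the TPM of the pair had its largest difference at the first step. H3f3b made up 55.14% ± 1.25 (SD, n = 3) of their summed TPM at 8 dpp and 48.08% ± 1.55 (SD, n = 5) at 10 dpp, and the ages did not overlap. The difference of -7.05 points had an exact permutation p of 0.0357 (two-sided), which did not pass after adjustment (adjusted p = 0.0794 over 12 comparisons of shares), and 0.0357 is the smallest that 3 against 5 mice allow. Between 10 and 16 dpp the mean share stayed within 47.3 and 48.4%, and at 18 dpp it was 49.99% ± 0.452 (SD, n = 5). The sum of both genes was 2803 ± 67.1 TPM (SD, n = 3) at 8 dpp, 2391 ± 42.4 TPM (SD, n = 5) at 10 dpp and 1803 ± 95.3 TPM (SD, n = 5) at 18 dpp. Processed copies of H3f3a elsewhere in the genome held at most 10.3 TPM together, or 1.02% of H3f3a plus copies, and a copy of H3f3b held at most 0.54 TPM. H3f3a also overlaps the opposite-strand genes Gm17275 and H3f3aos, and since no source used here says that reads were counted by strand, reads of these genes cannot be told apart where they overlap.

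H2afz (chr3:137864487-137866922, plus strand), which encodes H2A.Z.1, was the single gene of the 6 that rose. Its TPM was 154, 185 and 154 at 8 dpp, 146, 149, 171, 154 and 154 at 10 dpp and 161, 169, 156, 176 and 168 at 12 dpp. At 14 dpp it was 159.7, 151, 169, 150.0 and 141, and at 16 dpp 189, 199.5, 145, 170.5 and 174. Through 16 dpp the ages overlapped one another. The 18 dpp mice had 218, 240.0, 232, 204 and 177 TPM, and 4 of them were above every mouse of 8 to 16 dpp, while mouse 5 was not.

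The log2 fold change of H2afz from 8 to 18 dpp was 0.38 ± 0.09 (limma, adjusted p = 0.000748), from 164.5 ± 17.9 TPM (SD, n = 3) to 214.4 ± 24.9 TPM (SD, n = 5). The step from 16 to 18 dpp carried 0.29 of it (limma, adjusted p = 0.004). This step called 4 of the 6 genes, 1 up and 3 down, against 54% of all genes, and the H2afz call was lost there under quantile normalization (adjusted p = 0.0606). A long non-coding RNA, Gm26623, holds an antisense copy of H2afz that matched 97.46% of 708 bases and measured 7.26 to 27.1 TPM, and with it added the change from 8 to 18 dpp was 0.42 ± 0.08 (limma, adjusted p = 9.00e-05). The identical coding copy Gm8203 was at 0 TPM in all mice. A retained-intron transcript of Tmcc1 holds a closer antisense copy, which matched 99.85% of 682 bases, but it has no value in the transcript table used here, so reads from it and from H2afz cannot be told apart.

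H2afv (chr11:6427229-6444443, minus strand), which encodes H2A.Z.2, moved the other way. It measured 157, 170.3 and 167 TPM at 8 dpp, 130.1, 158, 136, 139.7 and 151 TPM at 10 dpp and 157, 138, 148, 133 and 142 TPM at 12 dpp. At 14 dpp it measured 159, 139, 150.1, 149.8 and 169.7 TPM and at 16 dpp 121, 132, 146, 133 and 129 TPM. These ages overlapped from one to the next. At 18 dpp the values were 85.1, 89.7, 94.7, 129.8 and 119 TPM, all below the 8 dpp mice, with mice 1 to 3 lowest and mice 4 and 5 within the range of the 16 dpp mice or just below it.

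The fall of H2afv from 8 to 18 dpp was 1.59-fold (log2 fold change -0.68 ± 0.10, limma, adjusted p = 1.31e-06), of which the last step held -0.36 (limma, adjusted p = 0.0012). Its earlier steps did not pass, with -0.21 from 14 to 16 dpp (limma, adjusted p = 0.0768). H2afv made up 50.14% ± 2.11 (SD, n = 3) of the H2A.Z pair at 8 dpp, 49.86% ± 2.90 (SD, n = 5) at 14 dpp, 43.02% ± 4.44 (SD, n = 5) at 16 dpp and 32.67% ± 6.35 (SD, n = 5) at 18 dpp. The mice of 8 and 18 dpp did not overlap, and the difference of -17.5 points had an exact permutation p of 0.0357 (two-sided, adjusted p = 0.0794), again the smallest possible. From 16 to 18 dpp the difference was -10.3 points with overlap between mice (exact permutation p = 0.0317, adjusted p = 0.0794). The summed TPM of the pair was 329.3 ± 23.1 (SD, n = 3) at 8 dpp and 318.1 ± 16.8 (SD, n = 5) at 18 dpp, a difference smaller than the SD at 8 dpp.

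Both H2A.Z genes were nearest the adult values in the same mice at 18 dpp. H2afz was 218.4 to 240 TPM in mice 1 to 3 and 203.9 and 177.3 TPM in mice 4 and 5, and H2afv 85.1 to 94.7 TPM against 129.8 and 119.4 TPM. These are the mice with the higher pachytene marker sums and with Sertoli sums of 626.8 to 647.7 TPM against 882.5 and 835.8 TPM, and the part of either in the H2A.Z levels was not tested.

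H1f0 (chr15:79028450-79030504, plus strand) encodes H1.0, the replacement linker histone of resting and differentiated cells. It had the largest fold change of the 6 genes tested. In the 3 mice at 8 dpp it measured 299.8, 277 and 275 TPM, in the 5 at 10 dpp 177, 176, 180.5, 207 and 175 TPM and at 12 dpp 104, 104, 91.4, 99.6 and 93.9 TPM. At 14 dpp it measured 82.7, 77, 77.7, 83.1 and 80.2 TPM, at 16 dpp 50.8, 58.2, 56.2, 60.5 and 61.2 TPM and at 18 dpp 35.5, 37.8, 34.2, 50.1 and 53.2 TPM. No mouse overlapped the age before it up to 16 dpp, and at 18 dpp mice 4 and 5 reached into or near the lower end of the 16 dpp values.

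From 8 to 18 dpp H1f0 fell 6.73-fold, a log2 fold change of -2.74 ± 0.10 (limma, adjusted p = 2.64e-17), and its rank by mean TPM went from 456 to 5046. Of the 5 steps between neighbouring ages, 4 passed. They were -0.63 (limma, adjusted p = 0.00107) at 10 dpp, -0.88 (adjusted p = 4.95e-08) at 12 dpp, -0.48 (adjusted p = 0.000247) at 16 dpp and -0.46 (adjusted p = 0.000138) at 18 dpp. At 16 dpp H1f0 was the single gene of the 6 to be called, against 24% of all genes, and without 16 dpp mouse 3 the count was 3, with H2afz (0.25, limma, adjusted p = 0.0183) and H2afv (-0.25, adjusted p = 0.0462). Without 18 dpp mouse 4 it was 2, with H2afv. From 12 to 14 dpp none of the 6 was called by limma, against 0.172% of all genes, and 2 had an unadjusted p under 0.05, H3f3b and H1f0, the latter with a log2 fold change of -0.30 (limma, adjusted p = 0.198). Gm49544 overlaps H1f0 on the opposite strand, and reads of the overlap cannot be told apart.

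**Figure D3:**
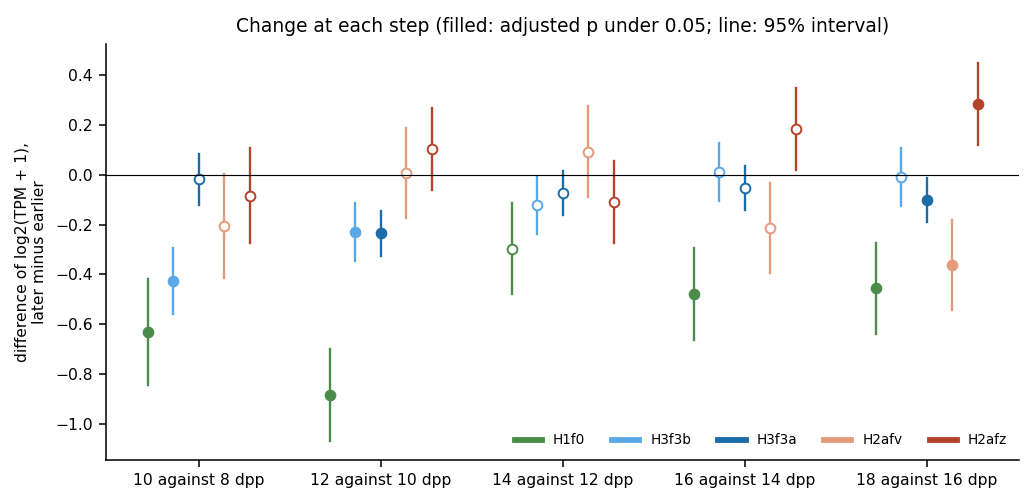
Difference of log2(TPM + 1) from each age to the next for H1f0, H3f3b, H3f3a, H2afv and H2afz, with 95% intervals from limma and filled points at an adjusted p under 0.05. The H1f0 changes were all below 0 and smallest from 12 to 14 dpp (-0.30), the filled H3f3b points lay at the first 2 steps, and H2afz and H2afv took opposite directions from 16 to 18 dpp.

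The spans from 8 to 12 dpp and from 14 to 18 dpp were compared as well, a choice made once the data were known. From 8 to 12 dpp, 3 of the 6 genes were called, all lower at 12 dpp, against 23.1% of all genes, with log2 fold changes of -1.51 for H1f0, -0.66 for H3f3b and -0.25 for H3f3a. From 14 to 18 dpp, 4 of the 6 were called (68.4% of all genes), with H2afz at 0.47, H1f0 at -0.93, H2afv at -0.58 and H3f3a at -0.15. H3f3b had a log2 fold change of 0.00075 there, with an interval of -0.12 to 0.12 (limma, adjusted p = 0.995).

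The split of each gene over its transcripts was taken from the transcript table. Of 19 transcripts tested 11 differed among the ages, against 48.1% of all transcripts. The H3f3b transcript ENSMUST00000016703 held 98.5% of its gene at 8 dpp and 96.7% at 18 dpp. The H3f3a transcripts ENSMUST00000162814 and ENSMUST00000081026 held 55.2 and 37.5% at 8 dpp and 54.2 and 38.7% at 18 dpp. H2afv was divided nearly evenly between ENSMUST00000093346, at 52.3 and 53.4%, and ENSMUST00000109737, at 47.7 and 46.6%. In H2afz the full transcript ENSMUST00000041045 went from 78.1 to 77.2%, and a retained-intron form, ENSMUST00000138010, from 8.72 to 4.80%.

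In these poly-A libraries the testis-specific genes were near or at 0 in the juvenile mice. Hist1h1t (chr13:23695814-23696725, plus strand), which encodes the linker histone H1t of spermatocytes, measured 0, 0 and 0.26 TPM at 8 dpp and 0 in all 5 mice at 10 dpp. It reached 0.58, 0.3, 1.24, 0.39 and 0 TPM at 12 dpp, 0.34, 0, 0.55, 0.31 and 0.64 at 14 dpp, 0.61, 0.65, 0.28, 0.66 and 0.26 at 16 dpp and 0.91, 0.75, 0, 0.33 and 0 at 18 dpp. No mouse passed 1.24 TPM, and the later ages overlapped. The 4 adult samples had 2.45, 2.66, 4.34 and 4.14 TPM, all higher than any juvenile mouse. The paper stained H1t protein in cells of the same juvenile mice and found many positive late pachytene cells by 16 to 18 dpp. Low poly-A values of Hist1h1t are therefore no measure of its protein or of mRNA without a poly-A tail.

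Hils1 (chr11:94967593-94968456, plus strand) encodes a linker histone of elongating spermatids. It was listed at 0 in all mice of 8, 10 and 12 dpp, and measured 0, 0.31, 0.32, 0 and 0.74 TPM at 14 dpp and 0.71, 0, 0, 0.38 and 0.3 TPM at 16 dpp. At 18 dpp it was 1.4, 0.43, 0.36, 0.38 and 0.43 TPM, above 0 in all 5 mice. With no filter on low values Hils1 entered the fit and was called between 8 and 18 dpp (log2 fold change 0.64, limma, adjusted p = 0.00594), a fit in which 30.7% of 60085 genes were called between these ages and 32.8% among all ages. In the adult samples it measured 73.6, 43, 104 and 85.6 TPM. Sgca overlaps Hils1 on the opposite strand. The spermatid marker genes were high in the same adult samples, with Prm1 at a mean of 209.1 TPM and Tnp1 at 272.9 TPM, and the spermatid linker gene H1fnt, at 33.7 ± 8.07 TPM (SD, n = 4), and the H2A variant gene H2al2a, at 15.5 ± 5.48 TPM (SD, n = 4), were at 0 in all 28 juvenile mice. The part of spermatid RNA in the adult Hils1 level was not tested.

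**Figure D4:**
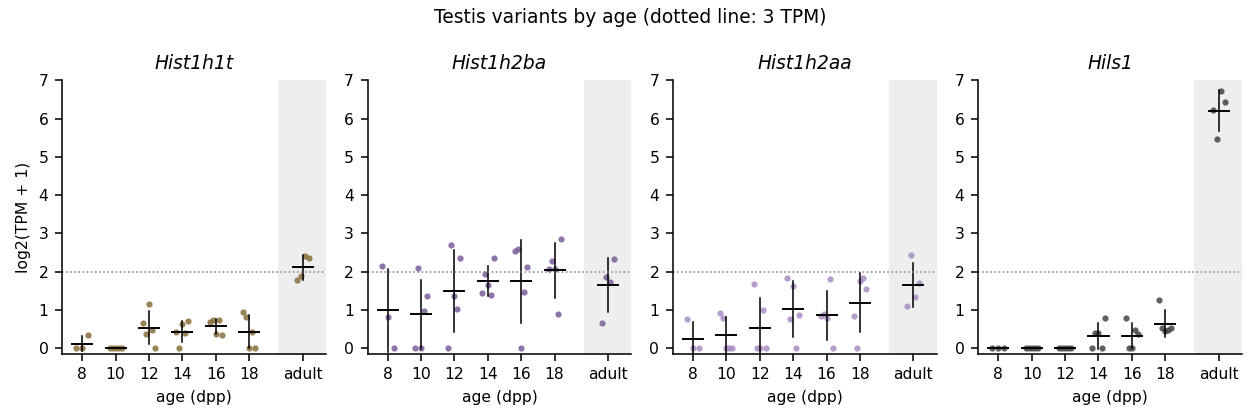
Levels of the testis variant genes Hist1h1t, Hist1h2ba, Hist1h2aa and Hils1 as log2(TPM + 1) by age in dpp, with the adult pachytene samples shaded and a dotted line at 3 TPM. Points are single mice or pooled adult samples, the bar is the mean and the line the mean ± SD. The juvenile values of all 4 genes were at or below 6.27 TPM, and Hils1 was at 43.0 to 103.6 TPM in the adult samples.

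Hist1h2ba (chr13:23933773-23934156, minus strand) and Hist1h2aa (chr13:23934462-23934851, plus strand) encode TH2B and TH2A, the testis forms of H2B and H2A. Hist1h2ba measured 3.45, 0.77 and 0 TPM at 8 dpp, 0, 3.26, 0, 0.94 and 1.57 at 10 dpp and 0, 5.45, 1.58, 1.02 and 4.11 at 12 dpp. It then measured 1.73, 2.82, 2.14, 1.6 and 4.11 TPM at 14 dpp, 4.79, 5.06, 0, 1.74 and 3.35 at 16 dpp and 3.17, 3.85, 3.2, 0.85 and 6.27 at 18 dpp. Each age overlapped each other one. The log2 fold change from 8 to 18 dpp was 1.04 ± 0.60, with an interval of -0.20 to 2.28 (limma, adjusted p = 0.13), and without 8 dpp mouse 1 it was 1.62 and was called (adjusted p = 0.0368). Over all 6 ages the adjusted p was 0.296.

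Hist1h2aa was lower still. It measured 0.68, 0 and 0 TPM at 8 dpp, 0.88, 0.74, 0, 0 and 0 TPM at 10 dpp and 2.22, 0, 0, 0.99 and 0 TPM at 12 dpp. At 14, 16 and 18 dpp the highest mice were at 2.58, 2.52 and 2.53 TPM, and each of these ages had a mouse at 0. The adult samples had 1.15, 4.37, 1.52 and 2.28 TPM of Hist1h2aa and 0.58, 2.63, 2.34 and 4 TPM of Hist1h2ba, and 1 of the Hist1h2aa values was above every juvenile mouse. Gm44344 overlaps Hist1h2aa on the opposite strand.

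The replacement genes took other levels in the adult samples. They are set beside 18 dpp as values without a test. The adult and juvenile values stand in separate tables and differ in age, cell selection and the library code in their titles. These differences cannot be told apart. H2afz was 442, 447, 430.2 and 429 TPM, 2.04-fold above the 18 dpp mean. H2afv was 25, 21, 19.8 and 19.2 TPM, 4.88-fold below it. H2afv thus made up 4.64% ± 0.483 (SD, n = 4) of the H2A.Z pair, and no adult sample overlapped an 18 dpp mouse for either gene. H1f0 was 3.14, 4.89, 3.39 and 4.87 TPM, 10.3-fold below 18 dpp. H3f3a was 792, 729.8, 790.0 and 766 TPM and H3f3b 589.6, 503, 619 and 521 TPM, so that H3f3a exceeded H3f3b in each of the 4 samples and H3f3b made up 41.98% ± 1.62 (SD, n = 4) of the pair. In order of mean TPM the adult levels ran H3f3a, H3f3b, H2afz, Hils1, H2afv, H1f0, Hist1h1t, Hist1h2ba and Hist1h2aa, and the last 4 overlapped their neighbours.

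Other genes of histone variants and their handling were taken from lists chosen with earlier results of these data known, and their counts are to be read against the 31.8% of all genes that rose and the 36.3% that fell from 8 to 18 dpp. Of 12 other variant genes 7 were tested, and 3 rose and 3 fell (42.9% each), with a median log2 fold change of 0.14. H2afx, the H2A variant phosphorylated at DNA breaks, rose from 58.1 ± 2.12 to 126 ± 20.4 TPM (adjusted p = 6.59e-10) and the linker gene H1fx from 78.2 ± 8.19 to 101 ± 14.6 TPM (adjusted p = 0.0269). H2afy2, which encodes macroH2A2, fell from 29.1 ± 0.645 to 10.3 ± 2 TPM (adjusted p = 3.16e-11), and Cenpa, the centromeric H3 variant, from 72.9 ± 7.07 to 36.6 ± 6.97 TPM (adjusted p = 8.5e-08). All these adjusted p-values are from limma.

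Of 23 genes that deposit or chaperone variants, 12 rose (52.2%) and 8 fell (34.8%), with a median log2 fold change of 0.25. Znhit1, a subunit of the complex that deposits H2A.Z, rose from 44.4 ± 3.22 to 221 ± 61.9 TPM (adjusted p = 1.78e-12), and Nasp, a histone chaperone, from 239 ± 28.8 to 620.3 ± 176 TPM (adjusted p = 1.28e-08). Atrx, which acts with Daxx in H3.3 deposition, fell from 61.2 ± 4.84 to 23.8 ± 3.66 TPM (adjusted p = 6.05e-10), and Anp32e, which removes H2A.Z, from 175 ± 10.6 to 76.5 ± 9.42 TPM (adjusted p = 3.72e-11). Daxx itself rose from 94.2 ± 2.83 to 136.8 ± 21.9 TPM (limma, adjusted p = 9.73e-06). Vps72 fell from 99.4 ± 3.73 to 66.2 ± 2.07 TPM (limma, adjusted p = 3.97e-08), and Srcap did not pass (limma, adjusted p = 0.581).

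Of 10 genes that form the ends of histone mRNAs, 4 rose (40%) and 3 fell (30%). Zfp473, a protein of the U7 particle, rose from 2.09 ± 0.651 to 8.45 ± 0.785 TPM (adjusted p = 4.91e-09), and Lsm10, a ring subunit of it, from 17 ± 1.85 to 30.6 ± 3.2 TPM (adjusted p = 4.12e-07). Lsm11, its partner in the ring, fell from 6.86 ± 0.16 to 4.81 ± 1.45 TPM (adjusted p = 0.0075), and Npat, the activator of histone gene transcription, from 29.4 ± 4.32 to 21.1 ± 1.23 TPM (adjusted p = 0.000143). Of 10 genes of the histone-to-protamine transition 5 were tested and 2 rose (40%), the testis bromodomain gene Brdt from 13.7 ± 2.57 to 153 ± 34.4 TPM (adjusted p = 8.07e-16) and the proteasome activator gene Psme4 from 39 ± 1.39 to 109 ± 30.9 TPM (adjusted p = 2.58e-09).

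Of 67 genes of the replication-dependent histone clusters 28 were tested, and 9 rose (32.1%) and 4 fell (14.3%), with a median log2 fold change of 0.15 that was -0.28 under quantile normalization. Hist2h2aa1, an H2A gene, rose from 3.29 ± 5.7 to 70.2 ± 32.4 TPM (adjusted p = 0.000595), but it is nearly identical to Hist2h2aa2 and the split of reads between them is uncertain. The H2B gene Hist2h2be rose from 4.8 ± 0.579 to 24.3 ± 7.74 TPM (adjusted p = 2.2e-09). The H4 gene Hist1h4k went from 2.58 ± 1.67 TPM to 0 in all 5 mice (limma, adjusted p = 0.00699). This was no steady fall. Its mean had already dropped to 0.58 TPM by 10 dpp, then climbed to 3.27 TPM, its highest, by 16 dpp. Hist1h4k was listed at 0 in 12 of the 28 mice and never exceeded 6.64 TPM. The H3 gene Hist1h3c, also a low gene, fell from 1.7 ± 0.955 to 0.47 ± 0.797 TPM (adjusted p = 0.0296).

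**Figure D5:**
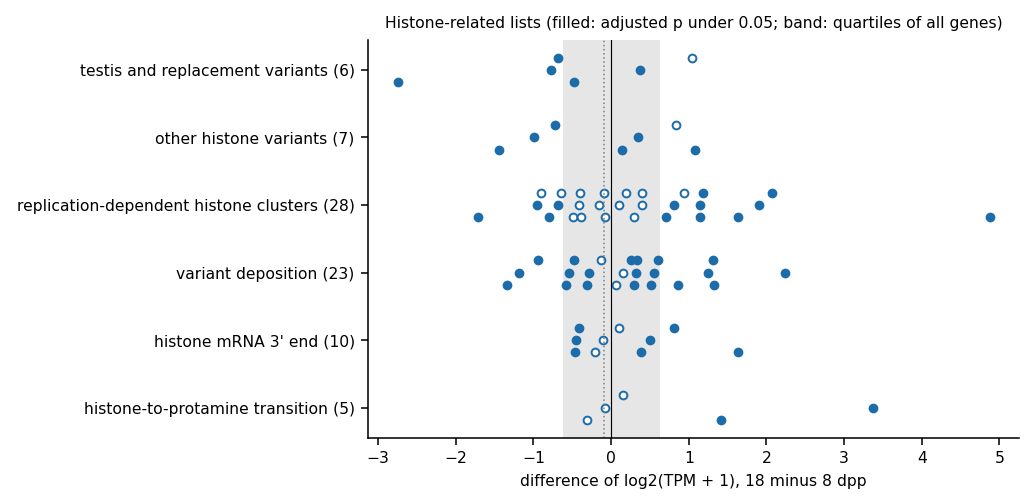
Difference of log2(TPM + 1) from 8 to 18 dpp for the 6 testis and replacement variant genes tested and for 5 related lists, 1 point per gene, filled at an adjusted p under 0.05. The grey band spans the quartiles of all genes, -0.60 and 0.62, and the dotted line their median of -0.09. H1f0 stood lowest of the 6 at -2.74, and Hist1h2ba highest at 1.04 with an open point.

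The genes whose profile over the 28 mice was most like each of the 6 were found among 10187 genes by the root mean square difference of centred log2(TPM + 1). For H3f3a they were the ribosomal genes Rpl8 (0.06) and Rpl35a (0.07) and the pseudogene Rpl15-ps3 (0.07). For H3f3b the nearest were Nrde2 (0.12), Nop53 (0.13) and Naca (0.13). The profile of H2afz was nearest to Cwc15 (0.11), Gtf2a2 (0.12) and Strap (0.12). That of H2afv was nearest to P4hb (0.09), Slc39a7 (0.09) and Cyc1 (0.10). H1f0 had more distant neighbours in F2r (0.22), Arhgef17 (0.24) and Lbh (0.25), and Hist1h2ba the most distant in Lims2 (0.74), Cryzl1 (0.74) and Hnrnph3 (0.75).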

How the data were processed

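Poly-A RNA of germ cells was sequenced by the authors from 28 juvenile mice and 4 pooled adult samples. Per the labels and the submitters' processing notes, reads were aligned to mm10 sequences with Bowtie 1.0.0 and TPM was estimated with RSEM 1.2.8. The deposited transcript table and adult gene table hold TPM. The deposited juvenile gene table holds a score, exp(log2(TPM + 1)) - 1, which was converted to TPM here, after which 20288 genes were within 0.2 TPM of their summed transcripts in every mouse and 80 were not. Such sums gave the values of genes outside that table. The authors kept genes of at least 3 TPM in at least 1 mouse. The deposited lists of the authors' own calls per meiotic substage were not used, and 0 columns belonged to no sample. TPM keeps no depth, and no columns of 2 mice were identical.

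Expression as log2(TPM + 1) was fitted over all 20368 genes with limma 3.58.1 (R 4.3.3), in a single model of the 6 ages whose prior variance was allowed to follow the mean level. Calls were made at a Benjamini-Hochberg adjusted p under 0.05. Each mouse was a sample, and nothing in the labels states whether mice of an age were littermates. Fold changes on this scale understate the change of low genes. Shares of gene pairs were compared with exact permutation tests in scipy 1.17.1. The procedure was tested on simulated data.

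The 9 genes and all lists were chosen with earlier results of these data known. Named from each list were the genes with the 2 largest rises and the 2 largest falls among those called, and the 3 nearest profiles among genes whose mean reached 10 TPM. The genes H1fnt, H2al2a, Prm1, Tnp1, Daxx, Vps72 and Srcap were chosen after their values were seen. Gene positions are from GENCODE release M21 (GRCm38), upstream sequences from RefSeq (GRCm38.p6), and near copies of at least 95% identity over 200 bases were sought among GENCODE transcripts with BLAST+ 2.17.0. Alternatives were 2 other scalings, 2 other pseudocounts, 2 other filters, summed transcripts, a constant prior variance, the ages compared alone, mice 1 to 3 alone, a replicate block and leaving out each mouse. Comparisons of 12 with 8 dpp and of 18 with 14 dpp, H2afz with its copies and the lists under other scalings were added after the data were seen.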

Additional observations from a re-analysis of the deposited data

Results flagged for a closer look

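Within 66 groups of 4 or 5 samples, 3 samples stood apart from the rest of their group by Dixon's criterion, which chance alone meets in about 1 of 20 groups. H3f3a measured 1046 TPM in mouse 2 at 14 dpp, where the other mice had 982.5 to 999.6 TPM. H1f0 measured 207.1 TPM in mouse 4 at 10 dpp, against 174.9 to 180.5 TPM in the others. Hils1 measured 1.40 TPM in mouse 1 at 18 dpp, against 0.36 to 0.43 TPM in the others. Leaving out any of these mice changed no call of H1f0 in the comparisons of neighbouring ages. For H3f3a the call from 10 to 12 dpp was kept in all 28 fits that left out 1 mouse. Its call from 16 to 18 dpp was lost in 19 of those 28. Hils1 was outside the main fit.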

How the results depend on the processing

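Of 626 alternative values of 16 fold changes followed, 596 kept their direction and their side of the threshold, 27 lost the call, 1 gained it and 2 reversed. Steps between neighbouring ages were followed only where already called, so among the 16 only Hist1h2ba could gain a call. Leaving out a mouse of an age not compared cannot change a fold change, only its error. The 596 are thus no measure of how stable the results are. The 2 reversals were H3f3a from 16 to 18 dpp, at 0.067 with median-of-ratios factors and 0.00044 with quantile normalization. Those scalings moved the median of all genes from 8 to 18 dpp by 0.143 and -0.169, and the share of calls that were higher at 18 dpp from 46.7% to 55.9% and 37.7%. The H3f3b fall from 10 to 12 dpp was lost with quantile normalization (adjusted p = 0.219) and with mice 1 to 3 only (adjusted p = 0.0967). The number of the 6 genes called from 14 to 16 dpp was 2 when only the mice of those ages were fitted and 1 to 3 when each mouse was left out, and that from 16 to 18 dpp was 2 with quantile normalization. The cause was not tested. The difference in H3f3b share from 10 to 12 dpp ran from -0.452 to 0.5554 points as each mouse was left out, and that in H2afv share was 0.01165 points with mice 1 to 3 only. With no filter 6 of 9 genes differed among the ages, Hils1 included, against 32.8% of 60085 genes. Under quantile normalization 1 of the other variant genes rose and 3 fell, and 4 genes of histone mRNA ends rose and 5 fell. With a replicate block, 5, 2, 3, 0, 1 and 3 of the 6 genes were called from 8 to 18, 8 to 10, 10 to 12, 12 to 14, 14 to 16 and 16 to 18 dpp, H3f3a being lost in the last (adjusted p = 0.0593). Of 65 same-numbered pairs of mice, 3 correlated above 0.1 (median 0.0137), and 9 of 28 mice correlated best with their own number. These correlations cannot show whether same-numbered mice shared handling, and the labels do not say. TPM gives no counting error, so a level of 0 is only listed as such, and Hist1h1t, Hist1h2aa and Hils1 could not be tested above the filter.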
